A study of Homo sapiens with 12 samples.

Results

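A set of 40 interferon-stimulated and antigen presentation genes was followed across sorted fractions of A549 cells, a cell line established from a human lung adenocarcinoma. The genes were chosen by name from knowledge of the interferon response, at a point when earlier results of these data were known. Each was represented by the probe set that carries its symbol and has the highest mean over the 12 arrays. Of the 40 genes, 39 had a probe set of their own, and STAT2 was not analysed here. The array covered 19775 genes in this way, of which 14649 lay above a filter on dim probe sets. Among the 39 genes, 32 lay above it and 7 below.

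Type I interferons bind a receptor formed by IFNAR1 and IFNAR2, whose kinases JAK1 and TYK2 activate transcription factors. These join IRF9 in a complex that binds the interferon-stimulated response element (ISRE) in the promoters of its targets, while type II interferon acts through the gamma-activated sequence (GAS). The targets include enzymes that degrade or sense viral RNA, proteins that restrict virus entry and replication, the ubiquitin-like modifier ISG15, and the proteasome subunits, peptide transporter and light chain that load peptides on MHC class I. Epithelial cells express many of these genes at a low level in the absence of added interferon.

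Before sorting, cells had either received no antibody or spent 48 h in 100 µg/ml of a monoclonal antibody to EpCAM, which the labels describe as anti-mouse and for which they name no isotype control. The DNA dye Hoechst 33342 was loaded for 90 min at a concentration of 5 µg/ml, and viable cells were divided by flow sorting into those that exclude the dye, the side population (SP), and the remaining non-SP cells. The groups were untreated non-SP, untreated SP, anti-EpCAM non-SP and anti-EpCAM SP, with 3 biological replicates each. The protocol mentions dye loading with or without reserpine, a blocker of dye efflux, and does not tie it to single samples. All samples come from 1 cell line, so the replicates measure the spread between cultures of A549. The 6 pairs of SP and non-SP arrays with the same treatment and replicate number served for the comparison of fractions.

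The files give no read depth or detection call, and the number of arrays limits the precision. Values were log2 values from robust multiarray averaging (RMA). The medians of the 12 arrays lay between 5.58 and 6.24, and the sorted values of the 2 arrays of a pair differed by at most 0.0215 on average, against 0.0458 to 0.525 for other arrays. All 5 epithelial markers lay above the filter, including KRT18 at 14.5 and EPCAM, the target named on the antibody, at 9.84. Among the leukocyte markers with a probe set, PTPRC (4.31) and LYZ (4.23) lay below the filter and HLA-DRA (5.52), CD3E (6.71) and CD14 (6.83) above it. The filter therefore separates dim from bright probe sets and is not a call of expression. Of the endothelial markers 1 of 3 lay above it, with CDH5 at 3.79 and VWF at 5.36 below. Of the fibroblast markers 3 of 4 did, including COL1A1 at 9.28, with LUM at 3.74 below. The mean level of the leukocyte markers ran from 4.96 to 5.97 over SP arrays and from 5.00 to 5.94 over non-SP arrays, and that of the fibroblast markers from 5.48 to 6.65 and from 5.73 to 6.84. These are bulk samples, in which fewer cells of a type and less RNA per cell cannot be told apart.

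Promoter stretches of 8 members are shown because they carry the elements through which interferon signalling is known to act. Windows from 250 bases before to 50 bases after the gene start (RefSeq, GRCh38.p14) were held for 30 of the 40 genes. The ISRE core was searched as GAAA, any 2 bases and GAAA, and the GAS as TTC, any 3 bases and GAA, both on either strand, with overlapping matches counted. Capitals mark the matches, and each stretch is written on the strand of its gene, so that an ISRE on the opposite strand reads TTTC, 2 bases and TTTC. IFIT1, ISG15, SAMD9 and IFITM1 stand for the antiviral effectors, at chr10:89392487-89392536 (plus strand), chr1:1013364-1013413 (plus), chr7:93118086-93118135 (minus) and chr11:313980-314029 (plus).
IFIT1: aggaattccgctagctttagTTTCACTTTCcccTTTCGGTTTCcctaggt
ISG15: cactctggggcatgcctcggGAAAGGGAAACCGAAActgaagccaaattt
SAMD9: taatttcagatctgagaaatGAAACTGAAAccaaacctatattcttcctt
IFITM1: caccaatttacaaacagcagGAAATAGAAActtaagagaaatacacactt
B2M and TAP1 stand for antigen presentation, PARP9 for a start region shared with a neighbour, and IRF1 for the GAS, at chr15:44711353-44711402 (plus), chr6:32853809-32853858 (minus), chr3:122564312-122564361 (minus) and chr5:132490869-132490917 (minus).
B2M: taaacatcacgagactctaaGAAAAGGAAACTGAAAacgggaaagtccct
TAP1: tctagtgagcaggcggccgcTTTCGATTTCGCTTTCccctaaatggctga
PARP9: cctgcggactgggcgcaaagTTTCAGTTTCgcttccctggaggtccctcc
IRF1: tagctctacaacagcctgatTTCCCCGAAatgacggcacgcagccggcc

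In ISG15, B2M and TAP1 a pair of ISRE matches overlapped, and in IFIT1 a pair lay 3 bases apart. PARP9 and its divergent neighbour DTX3L held the same match, chr3:122564332-122564341, within both windows. The ISRE core occurred in 23 of the 30 members with a window (76.7%), against 4.38% of all 27305 genes with one. IFIT3 had 4 matches over its windows, the most of any member, and 13 members had at least 2. The GAS core occurred in 11 of the 30 (36.7%), against 9.38% of all genes. BST2, IFI27, IFITM1, MX1, PARP14, PSMB8 and TAP1 held both cores. STAT2, XAF1 and PSMB9 held neither in their windows. A match describes letters in a window and is not a measured binding site.

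The first question was which of the genes were expressed in A549 cells. B2M, the light chain of MHC class I, had the brightest probe set, with a mean of 13.18 over the 12 arrays. In all 12 arrays, 28 members lay above the 40th percentile of their own array, the level on which the filter was based. The other members above the filter were IFI27 (8 arrays), OAS2 (9), MX2 (10) and GBP2 (11). For 23 members the mean lay above the 60th percentile of all probe sets (6.58). The leukocyte markers CD3E (6.71) and CD14 (6.83) and the endothelial marker PECAM1 (6.71) lay above it too, so this level is no call of expression either. Shares of all genes were not computed for the counts of 28 and 23. Each gene was read from its brightest probe set, while the percentiles are over all probe sets. All 5 antigen presentation genes and all 6 genes of the ISG15 and ADP-ribosylation group lay above the filter. The counts were 5 of 6 for transcription factors, 6 of 8 for IFIT and IFI genes, 6 of 8 for RNA sensing and effector enzymes, and 4 of 7 for restriction factors and GTPases. The filter stood at 5.39, with IFI27 (5.48) and MX2 (5.51) just inside and BST2 (5.29) just outside. Below it lay IFI44 (3.83), IFI44L (3.88), RSAD2 (4.26), XAF1 (4.54), GBP1 (4.81) and TRIM22 (4.92), and the first 5 of these were under the 40th percentile of every array. RSAD2 encodes viperin, an antiviral enzyme that makes a chain-terminating nucleotide, and GBP1 a guanylate-binding protein strongly induced by type II interferon. A level of 1 gene cannot be set against that of another, since probe sets differ in how brightly they bind.

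**Figure D1:**
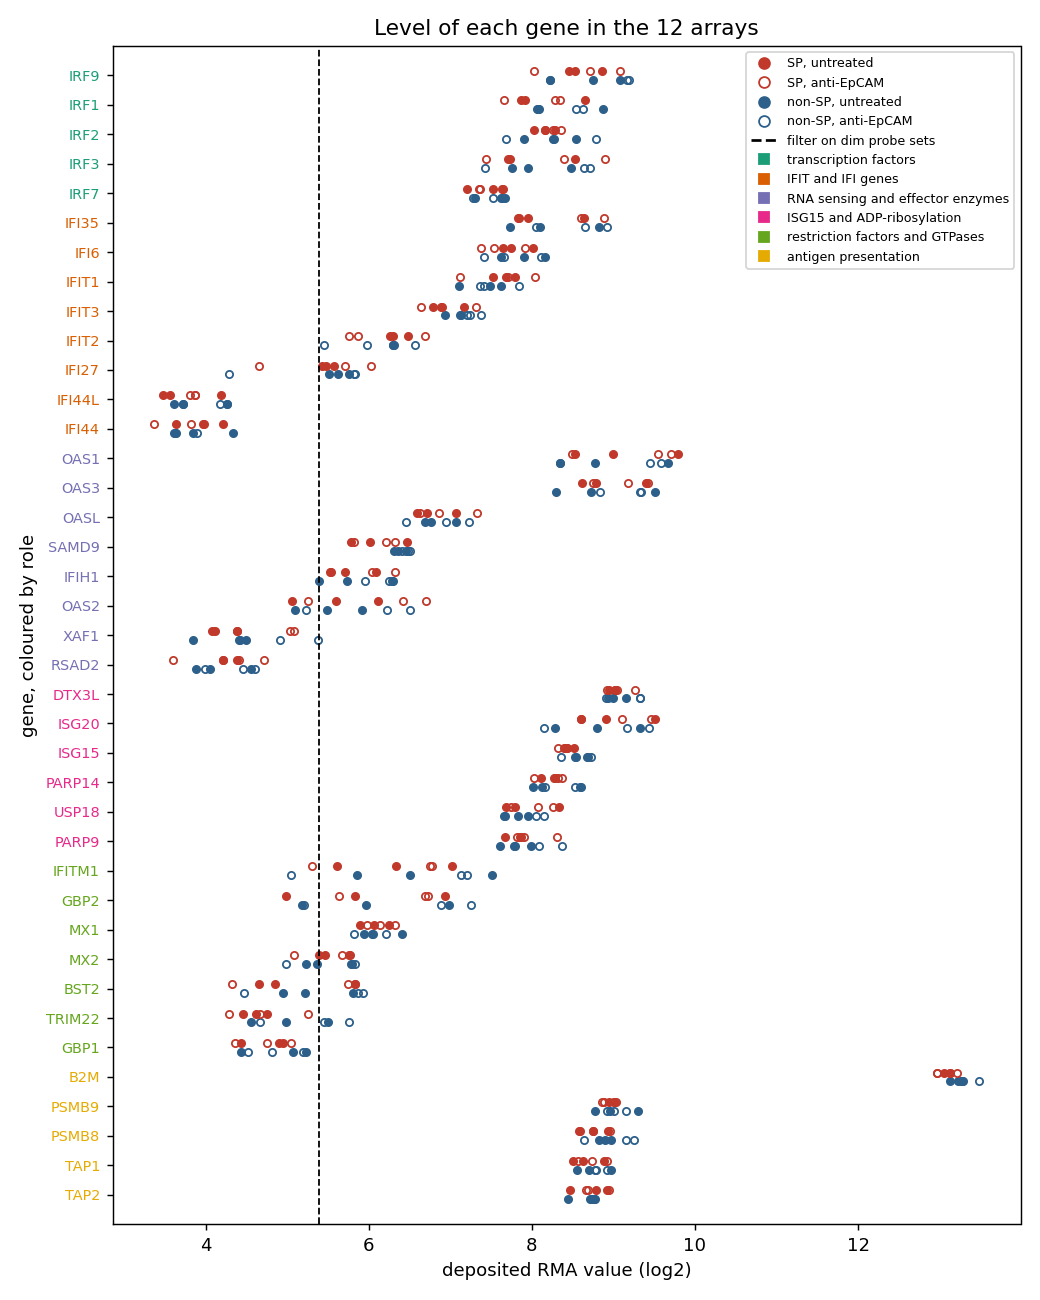
Deposited RMA value (log2, horizontal axis) of each of the 39 genes with a probe set in the 12 arrays, with genes on the vertical axis grouped and coloured by role, SP in red, non-SP in blue, untreated filled and anti-EpCAM open. The dashed line is the filter at 5.39, and 32 genes have means to its right. SP and non-SP points overlap for nearly every gene, and positions of different genes on the axis are not comparable.

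The second question was whether SP cells differ from non-SP cells in these genes. IRF1, a transcription factor that activates interferon and MHC class I genes, was lower in the SP array of all 6 pairs and passed the test. It was the only one of the 32 genes above the filter that did so, and none was higher. The rate over all genes tested was 2.47% called, with 1.02% higher and 1.45% lower, so 1 of 32 is near the background. The other 31 mean differences ran from -0.32 to 0.17 on the log2 scale, and every one of the 32 intervals of 95% lay within 0.50 of 0. Fold changes of 2 (1 on the log2 scale) lie outside all of these intervals.

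**Figure D2:**
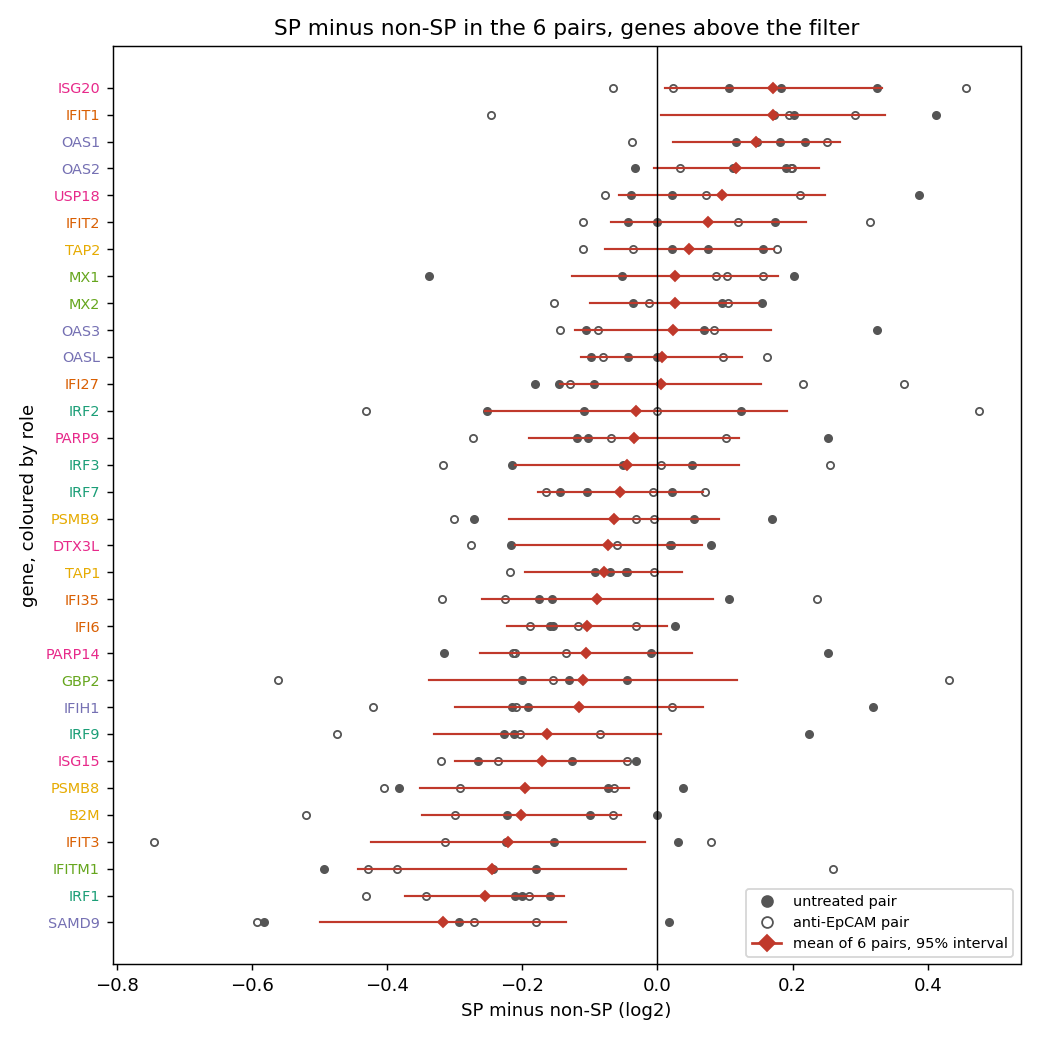
SP minus non-SP difference (log2, horizontal axis) of the 32 genes above the filter, ordered by their mean. Grey points are the 6 pairs, filled for untreated and open for anti-EpCAM, and red diamonds with bars are the mean with its 95% interval from limma. Means run from -0.32 for SAMD9 to 0.17 for ISG20, and 4 genes, IRF1, ISG15, B2M and TAP1, have all 6 points below 0.

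Among the transcription factors, IRF1 measured 8.08, 8.07 and 8.87 in untreated non-SP cells (replicates 1 to 3) and 7.92, 7.87 and 8.66 in the SP cells of the same pairs. Under the antibody it measured 8.09, 8.63 and 8.54 in the non-SP arrays against 7.66, 8.29 and 8.35 in SP. The fractions overlapped across pairs, since the highest SP value exceeded the lowest non-SP value, and the difference lay within the pairs. It was -0.26 ± 0.053 (SE, n = 6 pairs), or 1.19-fold lower in SP cells, with an adjusted p of 0.0357 from limma with Benjamini-Hochberg adjustment over all genes tested. With any 1 of the 3 untreated pairs, anti-EpCAM pair 1 or anti-EpCAM pair 2 left out, the difference stayed between -0.23 and -0.26 and the adjusted p rose to between 0.0623 and 0.161. It was 0.0430 without anti-EpCAM pair 3, 0.0527 with all dim probe sets included and 1 with the 12 arrays taken as unpaired. The other bright probe set of IRF1 was lower in 3 of 6 pairs, with a mean difference of -0.043.

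IRF9, the DNA-binding subunit of the complex that binds the ISRE, measured 8.23, 8.76 and 9.08 in untreated non-SP and 8.45, 8.53 and 8.86 in untreated SP cells. Its antibody-treated values were 8.23, 9.19 and 9.17 in non-SP against 8.02, 8.72 and 9.09 in SP cells. IRF9 was thus lower in the SP array of 5 pairs and higher in that of untreated replicate 1, and the mean difference of -0.16 ± 0.076 (SE, n = 6 pairs) did not pass (limma adjusted p = 0.324). IRF2, which competes with IRF1 for the same sites, differed by -0.032. For IRF3, which is activated downstream of viral RNA sensors, the difference was -0.045, and for IRF7, the amplifier of type I interferon, it was -0.055. All 5 estimates lay below 0, with a median of -0.055 against 0.0056 over all genes tested.

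The IFIT and IFI genes were split. IFIT1, which binds viral RNA lacking a host cap, measured 7.11, 7.48 and 7.62 in untreated non-SP and 7.52, 7.68 and 7.79 in untreated SP cells. The antibody-treated values were 7.37, 7.85 and 7.41 in non-SP against 7.12, 8.04 and 7.71 in SP cells. SP was the higher array in 5 of 6 pairs, the exception being anti-EpCAM replicate 1, and the difference was 0.17 ± 0.074 (SE, n = 6 pairs; limma adjusted p = 0.291). IFIT3, which stabilises IFIT1 in a complex, measured 7.14, 6.94 and 7.12 in untreated non-SP and 7.17, 6.78 and 6.89 in untreated SP cells. With antibody it measured 7.21, 7.24 and 7.38 in non-SP against 6.89, 7.32 and 6.64 in SP cells. Here the SP array was the lower one in 4 pairs, with a mean difference of -0.22 ± 0.091 (SE, n = 6 pairs; limma adjusted p = 0.266), and the largest gap, in anti-EpCAM replicate 3, was -0.75. The other bright probe set of IFIT3 gave 0.084 in the opposite direction. IFIT2, a further member of the same family, differed by 0.075, IFI6, a mitochondrial and endoplasmic reticulum protein, by -0.10, IFI27 by 0.0046 and IFI35 by -0.089. Of the 6 genes above the filter 3 had estimates below 0 and 3 above, and their median was -0.042. The count is loose, since IFI27 was lower in SP in 4 of 6 pairs and the other bright probe set of IFIT2 gave -0.081.

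Among the RNA sensing and effector genes, SAMD9, an antiviral factor active against poxviruses, had the largest difference of all 32. It measured 6.46, 6.36 and 6.31 in untreated non-SP and 6.48, 5.78 and 6.01 in untreated SP cells, and 6.48, 6.50 and 6.41 in anti-EpCAM non-SP and 6.21, 6.32 and 5.82 in anti-EpCAM SP cells. As deposited, non-SP values lay between 6.31 and 6.50 and SP values between 5.78 and 6.48, but arrays of different pairs were not on 1 scale. After quantile normalization the non-SP values ran from 6.12 to 6.80 and the SP values from 5.50 to 6.70. SP was the lower array in 5 of 6 pairs. The mean difference of -0.32 ± 0.082 (SE, n = 6 pairs) did not pass (limma adjusted p = 0.0807), and a second probe set of SAMD9 gave -0.00030.

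OAS1 makes the short oligoadenylates that activate RNase L. Its values were 8.35, 8.78 and 9.68 in untreated non-SP, 8.53, 9.00 and 9.79 in untreated SP, 8.34, 9.45 and 9.59 in anti-EpCAM non-SP and 8.49, 9.70 and 9.55 in anti-EpCAM SP cells. SP exceeded non-SP in 5 of 6 pairs by 0.15 ± 0.056 in the mean (SE, n = 6 pairs; limma adjusted p = 0.228). Replicates of the same group lay more than 1 apart as deposited, where pairs were not on 1 scale. After quantile normalization the values were 8.52, 8.91 and 9.52 in untreated non-SP and 8.69, 9.49 and 9.45 in anti-EpCAM SP cells. The related synthases OAS2, OAS3 and OASL differed by 0.12, 0.023 and 0.0062. For IFIH1, the cytosolic sensor MDA5 of long double-stranded RNA, the difference was -0.12. The median over the 6 genes was 0.015.

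ISG15, the ubiquitin-like modifier, measured 8.55, 8.53 and 8.69 in untreated non-SP and 8.51, 8.40 and 8.43 in untreated SP cells. Its antibody-treated values were 8.36, 8.72 and 8.67 in non-SP against 8.32, 8.40 and 8.44 in SP cells. ISG15 was lower in SP in every pair, with differences of -0.032 to -0.32, and their mean of -0.17 ± 0.058 (SE, n = 6 pairs) did not pass (limma adjusted p = 0.178). ISG20, an exonuclease that degrades single-stranded RNA, measured 8.28, 8.81 and 9.33 in untreated non-SP and 8.61, 8.91 and 9.51 in untreated SP cells, and 8.15, 9.17 and 9.44 in anti-EpCAM non-SP and 8.60, 9.10 and 9.46 in anti-EpCAM SP cells. It was the higher of the pair in SP in 5 of 6 cases, by 0.17 ± 0.072 in the mean (SE, n = 6 pairs; limma adjusted p = 0.276), and its other probe set gave 0.21. USP18, the protease that removes ISG15 and dampens IFNAR signalling, differed by 0.096. The ADP-ribosyltransferases PARP9 and PARP14 differed by -0.035 and -0.11, and DTX3L, the ubiquitin ligase that partners PARP9, by -0.072.

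IFITM1, which blocks virus entry at membranes, measured 5.86, 6.51 and 7.51 in untreated non-SP and 5.62, 6.33 and 7.02 in untreated SP cells. With antibody the values were 5.04, 7.13 and 7.21 in non-SP against 5.30, 6.75 and 6.78 in SP cells. The SP array was lower in 5 of 6 pairs, with a mean difference of -0.24 ± 0.090 (SE, n = 6 pairs; limma adjusted p = 0.211). The exception was anti-EpCAM replicate 1, and without that pair the difference was -0.36 with an adjusted p of 0.0270. GBP2, a guanylate-binding protein, measured 5.18, 5.97 and 6.98 in untreated non-SP and 4.98, 5.83 and 6.94 in untreated SP cells, and 5.21, 6.88 and 7.25 in anti-EpCAM non-SP and 5.64, 6.73 and 6.69 in anti-EpCAM SP cells. Its mean difference of -0.11 ± 0.10 (SE, n = 6 pairs) did not pass (limma adjusted p = 0.652) and became 0.0065 without anti-EpCAM pair 3. MX1 and MX2, dynamin-like GTPases that restrict influenza virus and HIV, differed by 0.026 and 0.025.

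TRIM22, an antiviral ubiquitin ligase, lay below the filter and was tested only in a fit of all 19775 genes. It measured 4.56, 4.99 and 5.51 in untreated non-SP and 4.46, 4.62 and 4.76 in untreated SP cells. The antibody-treated values were 4.67, 5.46 and 5.76 in non-SP against 4.29, 4.67 and 5.26 in SP cells. SP was lower in all 6 pairs, and TRIM22 passed in that fit with a difference of -0.48 ± 0.085 (SE, n = 6 pairs; limma adjusted p = 0.0233). Only 1 of the 12 arrays had TRIM22 above its own 40th percentile, so the level itself is dim. The other 6 genes below the filter differed by -0.17 (BST2), -0.14 (GBP1), 0.0020 (IFI44), -0.17 (IFI44L), 0.0016 (RSAD2) and -0.067 (XAF1), and none passed in the same fit. The share of all genes called in that fit is not given here, so the call of TRIM22 cannot be set against a background rate.

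**Figure D3:**
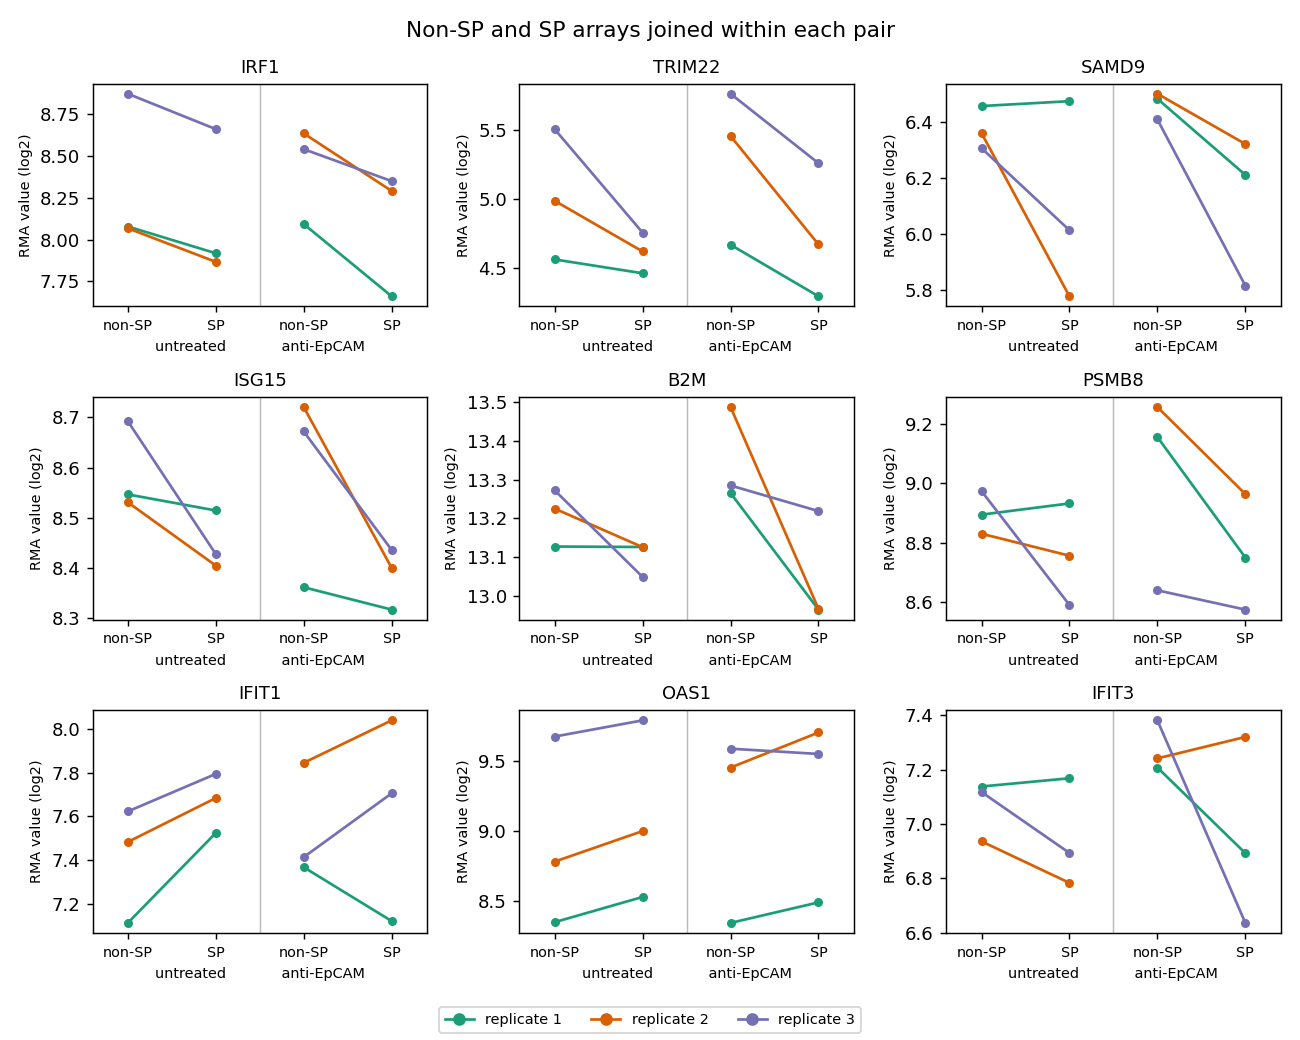
RMA value (log2, vertical axes, each with its own range that does not start at 0) of 9 genes in non-SP and SP arrays, with a line joining the arrays of a pair, untreated at left and anti-EpCAM at right of each panel and colours for the replicate number. The lines of IRF1 and TRIM22 fall in all 6 pairs and those of OAS1 rise in 5. For IRF1 and OAS1 the lines start far apart, from 8.07 to 8.87 and from 8.34 to 9.68 in non-SP cells. These are deposited values, which are not on 1 scale between pairs. After quantile normalization the non-SP values of the same genes ran from 8.19 to 8.69 and from 8.52 to 9.52.

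In antigen presentation, B2M measured 13.13, 13.23 and 13.27 in untreated non-SP and 13.13, 13.13 and 13.05 in untreated SP cells. Its antibody-treated values were 13.27, 13.49 and 13.28 in non-SP against 12.97, 12.97 and 13.22 in SP cells. B2M was lower in SP in all 6 pairs, though the values of untreated replicate 1 are equal to 2 decimals, and the mean difference of -0.20 ± 0.066 (SE, n = 6 pairs) did not pass (limma adjusted p = 0.161). Its other bright probe set was also lower in all 6 pairs, with a mean of -0.077. PSMB8, a catalytic subunit of the immunoproteasome, measured 8.89, 8.83 and 8.97 in untreated non-SP and 8.93, 8.76 and 8.59 in untreated SP cells. Under antibody it measured 9.15, 9.26 and 8.64 in non-SP against 8.75, 8.96 and 8.58 in SP cells. SP was the lower array in 5 of 6 pairs, with a mean difference of -0.20 ± 0.069 (SE, n = 6 pairs; limma adjusted p = 0.192). PSMB9, a second immunoproteasome subunit, differed by -0.064. TAP1, a subunit of the peptide transporter, was lower in all 6 pairs with a mean difference of -0.080, and its partner TAP2 differed by 0.047. The median over the 5 genes was -0.080.

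Over the 32 genes, 20 estimates lay below 0 and 12 above, 62.5% below against 47.6% of all genes tested. The median estimate was -0.059 against 0.0056. At an unadjusted p under 0.05 there were 10 of 32 (3 higher, 7 lower), against 16.2% of all genes. IRF1, ISG15, B2M and TAP1 were lower in SP in all 6 pairs, 4 of 32 against 4.68% of all genes, and no member was higher in all 6, against 6.03%. The mean difference over the 32 genes was 0.061, -0.065 and -0.10 in untreated pairs 1 to 3 and 0.0048, -0.097 and -0.13 in anti-EpCAM pairs 1 to 3. Both pairs numbered 1 thus had means above 0 and the other 4 below, and the mean of -0.055 ± 0.074 (SD, n = 6 pairs) was smaller than its spread. In the same order, the median over the 32 genes was 0.034, -0.087, -0.14, 0.012, -0.067 and -0.11. The median over all genes was 0.063, -0.0048, 0.0034, 0.013, 0.016 and -0.044. In both pairs numbered 1 the median over members thus lay above 0 but not above that over all genes. The 18 genes above the filter with an ISRE match had a median estimate of -0.092, with 12 below 0, and the 5 with a window and no match had -0.089, with 4 below 0. IRF2, IRF3, IRF7, IFIT2, MX2, OAS2, OASL, USP18 and GBP2 had no window and are in neither group. Both medians therefore leave out part of the 32 genes.

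A sign of RNA quality differed within pairs. The 3' minus 5' difference of the GAPDH control probe sets, which rises as RNA degrades, had SP minus non-SP values of -0.11, 0.0063 and 0.11 in untreated pairs 1 to 3 and of 0.54, 0.30 and -0.38 in anti-EpCAM pairs 1 to 3. Without anti-EpCAM pairs 1 and 3, the 2 with the widest values, the difference of IRF1 was -0.27, with a limma adjusted p of 0.0959. The fibroblast marker levels above, a little lower in SP, were not entered in a fit, and their part in the result was not tested.

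The treatments were then taken separately, in the same fit. In untreated cells 0 of the 32 genes passed (limma; 0.0956% of all genes called), and 4 had an unadjusted p under 0.05, against 8.88% of all genes. Under the antibody 0 passed as well (0.246% called), and 7 had an unadjusted p under 0.05, all of them lower in SP, against 10.5%. IRF1 differed by -0.19 ± 0.075 in untreated pairs and by -0.32 ± 0.075 in antibody-treated pairs (SE, n = 3 pairs each), with limma adjusted p of 0.487 and 0.155. B2M differed by -0.11 ± 0.094 and -0.30 ± 0.094, and IFIT1 by 0.26 ± 0.11 and 0.080 ± 0.11. The difference between treatments was tested as an interaction, in which 0 of the 32 genes passed (limma; 0% of all genes called) and 0 had an unadjusted p under 0.05, against 1.7% of all genes. The 95% intervals of the interaction lay within 0.62 of 0 for all 32 genes.

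The third question was whether the antibody changed these genes. No member passed, in the mean of both fractions or in either fraction. Because arrays of different pairs were not on 1 scale as deposited, this comparison used quantile-normalised values, with 3 pair means against 3. Of the 32 genes 0 passed (limma; 0% of all genes called), and 0 had an unadjusted p under 0.05, against 1.46% of all genes. Estimates lay above 0 for 16 and below 0 for 16, with a median of -0.0017 against 0.012 over all genes. For 29 genes the 95% interval lay within 1 on the log2 scale, and for 18 within 0.5. GBP2, IFITM1 and OAS2 had wider ones, so that a 2-fold change was not excluded for them at this number of arrays. In non-SP cells alone and in SP cells alone 0 of the 32 genes passed as well (limma; 0% of all genes called in each), and 0 had an unadjusted p under 0.05, against 1.65% and 1.3% of all genes.

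**Figure D4:**
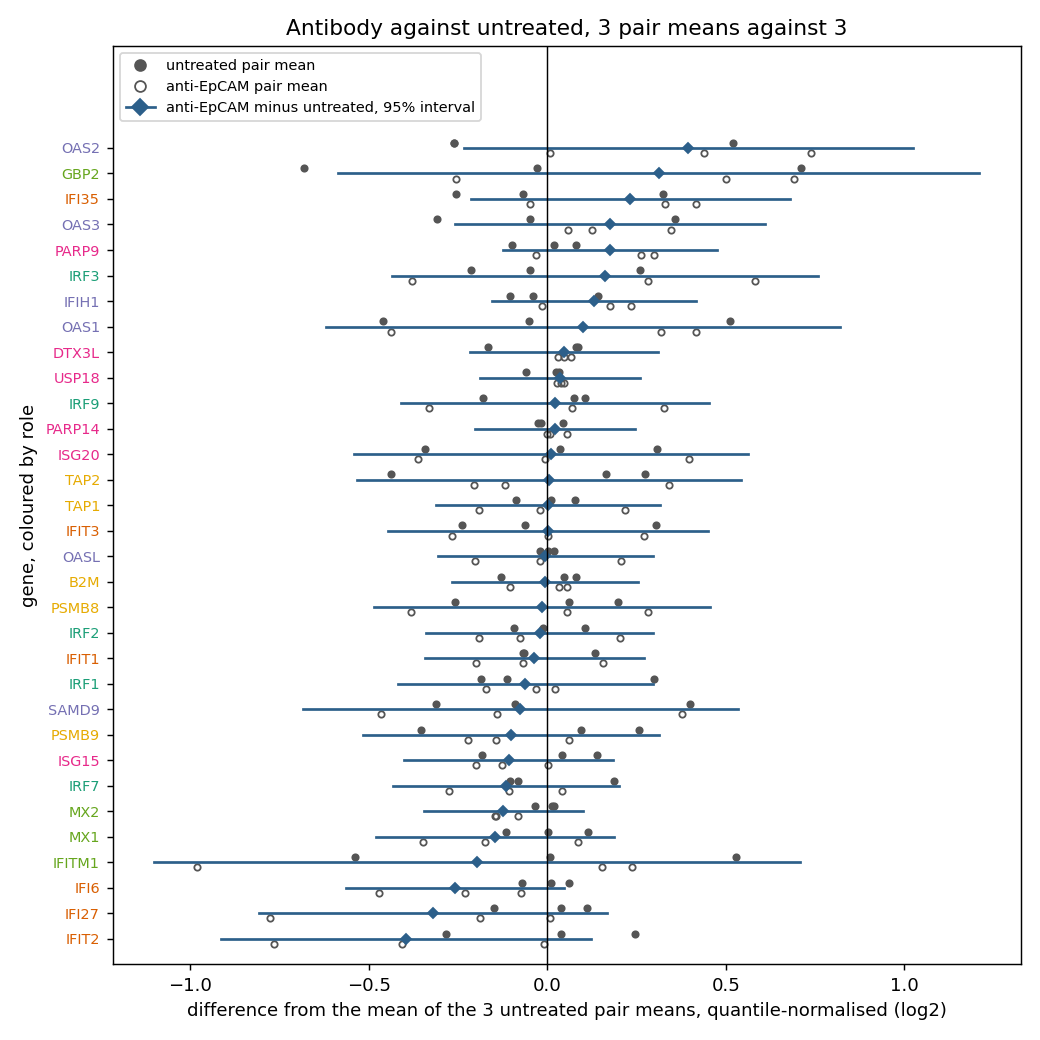
Quantile-normalised pair means (log2) of the 32 genes above the filter, drawn as their distance from the mean of the 3 untreated pair means, filled for untreated and open for anti-EpCAM, with the antibody effect as a blue diamond and its 95% interval from limma as a bar. Effects run from -0.39 for IFIT2 to 0.40 for OAS2, every bar crosses 0, and the open and filled points separate for 2 genes, IFI6 and MX2.

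IFI6 was the member of the IFIT and IFI group with the smallest p, and its 3 treated pair means lay below the 3 untreated ones. Its quantile-normalised values were 7.80, 8.03 and 7.97 in untreated non-SP, 7.83, 7.86 and 7.82 in untreated SP, 7.68, 7.89 and 7.46 in anti-EpCAM non-SP and 7.62, 7.74 and 7.37 in anti-EpCAM SP cells. The difference was -0.26 ± 0.13 (SE, n = 3 pair means per group; limma unadjusted p = 0.0863, adjusted p = 1.00). MX2 was the other gene without overlap, with untreated pair means of 5.59, 5.54 and 5.59 and treated ones of 5.43, 5.49 and 5.43. Its difference was -0.12 ± 0.095 and 0.024 in the values as deposited. Such separation was seen in 2 of 32 genes downwards, against 1.71% of all genes, and in 0 upwards, against 2.74%.

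In the other roles the genes of smallest p were OAS2, PARP9, IRF7 and PSMB9, none of which passed (limma adjusted p = 1.00 for each). OAS2 had pair means of 5.36, 6.14 and 5.36 without and 5.63, 6.06 and 6.36 with antibody, a difference of 0.40 ± 0.27 (SE, n = 3 pair means per group). PARP9 had 7.91, 7.85 and 7.73 without and 8.09, 8.13 and 7.80 with antibody, a difference of 0.18 ± 0.13. The groups overlapped for both. IRF7 had 7.45, 7.72 and 7.43 without and 7.57, 7.42 and 7.26 with antibody (-0.11 ± 0.13). PSMB9 had 9.13, 9.29 and 8.68 without and 9.10, 8.81 and 8.89 with antibody (-0.10 ± 0.18), and it turned to 0.027 without untreated pair 2.

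The level of the members also varied between pairs. For 31 of the 32 genes the range between the 6 pair means exceeded the size of the mean SP minus non-SP difference. A range over 6 values was set there against a mean of signed differences, so the count does not compare like with like. Its share over all genes was not computed. The median range was 0.551, against 0.453 over all genes, and the median size of the fraction difference 0.100, against 0.0633. IFITM1 had pair means of 6.00, 6.55 and 7.07 without and 5.56, 6.69 and 6.78 with antibody. GBP2 had 5.37, 6.02 and 6.76 without and 5.80, 6.55 and 6.74 with antibody. Both were lowest in the pairs numbered 1 of each treatment, and the same was true of OAS1 (8.60 and 8.63, against 9.01 to 9.58 in the other 4). SAMD9 ran the other way, with 6.68 and 6.66 in the pairs numbered 1 and 5.82 to 6.19 in the other 4. IFIT2 was the third gene with a range above 1, from 5.61 to 6.62. These genes were singled out after their values were seen, and 9.38% of members had a range above 1, against 7.37% of all genes.

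A further 106 genes of the pathway were read beside the members, of which 83 lay above the filter. None of the 8 interferon genes with a probe set did. In the comparison of fractions over both treatments, 2 of the 83 passed, near the rate of 2.47% over all genes. Of the 83, those 2 included, 15 had an unadjusted p under 0.05 (3 higher and 12 lower), or 18.1% against 16.2% of all genes. SOCS3, a feedback inhibitor of JAK kinases, measured 7.81, 8.21 and 8.92 in untreated non-SP and 8.08, 8.70 and 9.20 in untreated SP cells. Its antibody-treated values were 8.06, 8.82 and 9.23 in non-SP against 8.52, 9.32 and 9.39 in SP cells. SOCS3 rose in SP in all 6 pairs, by 0.36 ± 0.063 (SE, n = 6 pairs; limma adjusted p = 0.0203). IFI16, a sensor of DNA, measured 7.21, 7.17 and 7.71 in untreated non-SP and 7.01, 6.80 and 7.17 in untreated SP cells, and 7.29, 7.77 and 7.45 in anti-EpCAM non-SP and 6.81, 7.53 and 6.74 in anti-EpCAM SP cells. IFI16 fell in SP in all 6 pairs, by 0.42 ± 0.071 (SE, n = 6 pairs; limma adjusted p = 0.0177). Leaving out untreated pair 3 ended the call of IFI16 (adjusted p = 0.0741), and leaving out untreated pair 1, 2 or 3 or anti-EpCAM pair 2 ended that of SOCS3 (0.0506 to 0.0939).

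Of the receptors and signalling genes, IFNAR1 differed by 0.13, IFNAR2 by 0.044, IFNGR1 by 0.070, IFNGR2 by 0.032 and JAK1 by 0.0071, and none of these passed. Among the MHC class I genes the heavy chains HLA-B and HLA-C differed by -0.18 ± 0.083 and -0.14 ± 0.059 (SE, n = 6 pairs; limma adjusted p = 0.308 and 0.287), and probe sets of these closely related genes may bind each other's transcripts. NLRC5, the transactivator of MHC class I genes, differed by -0.22 ± 0.093 (adjusted p = 0.286), TAPBP, the chaperone tapasin, by -0.11 and the immunoproteasome subunit PSMB10 by -0.057. Of the 17 MHC class I genes tested 13 had estimates below 0, 76.5% against 47.6% of all genes, with a median of -0.059. With limma 0 of them passed, and 4 had an unadjusted p under 0.05, all lower, or 23.5% against 16.2%. The 7 MHC class II genes above the filter had 1 estimate below 0 and 6 above, with a median of 0.041, and 0 passed (1, or 14.3%, at an unadjusted p under 0.05). In the antibody comparison of pair means 0 of the 83 genes passed with limma, and 0 had an unadjusted p under 0.05.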

How the data were processed

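The 12 samples, 3 per group, were hybridised to Affymetrix arrays. The authors deposited log2 values per probe set from RMA (per the submitters' processing notes, without a version or the sets of arrays treated jointly). Since the arrays of a pair lie on 1 scale and pairs do not, fractions were compared as within-pair differences of deposited values and the antibody on values quantile-normalised here over the 12 arrays. The members, gene lists, filter and tests were chosen with earlier results of these data known.

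Probe sets were named through a table of GEO's platform annotation. Of 54613 probe sets other than the 62 controls, 41091 had 1 gene symbol, 1801 several and 11721 no entry, and only the first were named. A gene was kept when the mean of its brightest probe set lay above the 40th percentile of all probe sets (5.39). Tests were two-sided, with limma 3.58.1 in R 4.3.3 and Benjamini-Hochberg adjustment over the 14649 genes, with 0.05 as the threshold on the adjusted p. The fraction fit had 1 coefficient per treatment over the 6 pairs, and the antibody fit compared 3 pair means with 3. The 2 arrays of a pair deviated together from their group means (r from 0.62 to 0.89 in the 6 pairs), which was the ground for pairing fractions. Treated and untreated arrays were not paired: their r was 0.73, -0.11 and 0.60 for numbers 1 to 3 among non-SP arrays and 0.71, -0.18 and 0.64 among SP arrays, so not every number deviated together. The labels do not say that a pair shares a sort, and a common sort and common processing cannot be told apart. Values in every array are given for members that passed and for the 2 members per role of smallest p between fractions; for the antibody, the 1 per role of smallest p is given by array or by pair mean. TRIM22, XAF1, IFI44 and the genes described by their range between pairs are named in addition, chosen after their values were seen. On simulated data of 14649 genes the fraction fit called 83% of log2 changes of 0.5 and 99% of changes of 1, with 7 false calls, and the antibody fit 2% and 52%, with 2 false calls. The simulation added array noise to pair effects drawn with the observed spread of pair means, which already holds such noise. Its rates for the antibody fit may therefore be too low.

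Alternatives covered the pairing, normalization, filter, variance model, an RNA quality covariate, other probe sets and leaving out each pair. The covariate was the GAPDH difference, centred so that it alters the SE and not the estimate over both treatments. This need not hold for estimates within a treatment or the interaction, whose values with the covariate are not given here. With it IRF1 still passed over both treatments (limma adjusted p = 0.0309; 352 of all genes called). In each treatment and in the interaction 0 members passed. A fit without anti-EpCAM pairs 1 and 3, the 2 with the widest GAPDH differences, was chosen after seeing the data.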

Additional observations from a re-analysis of the deposited data

How the results depend on the processing

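The count of members called between fractions over both treatments was 1, and it became 0 with no replicate block (0 of all genes called with limma, 220 at an unadjusted p under 0.05), 0 with a trend in the moderation (0 of all genes called, 2351 unadjusted) and 0 without anti-EpCAM pairs 1 and 3 (27 of all genes called). Leaving out 1 pair at a time gave 0 to 1 members and 72 to 430 of all genes, against 362. Without anti-EpCAM pair 3 the member called was IRF1, and without anti-EpCAM pair 1 it was IFITM1. Without the filter the count was 1 again, but TRIM22 passed and IRF1 did not (adjusted p = 0.0527). The number of all genes called without the filter is not given here, so that count has no background rate beside it. Under the trend setting the adjusted p of IRF1, IFI16 and SOCS3 was 0.126 each, and without anti-EpCAM pairs 1 and 3 it was 0.0959, 0.108 and 0.0729. For the antibody, a replicate block on the number shared by treated and untreated pairs gave 0 members called, as did every other setting run. Estimates that changed sign, none of them called, included those of MX2 under the antibody (0.024 in the values as deposited), PSMB9 under the antibody (0.027 without untreated replicate 2, and otherwise down to -0.28 without untreated replicate 3), and GBP2 between fractions (0.0065 without anti-EpCAM replicate 3, and otherwise down to -0.24 without anti-EpCAM replicate 1). The cause of these changes was not tested. Of 12 other probe sets above the filter for 11 members, 7 had the sign of the one used. The others were those of IFIT3 (0.084 between fractions), IFIT2 (-0.081), OASL (-0.079) and TAP2 (-0.072 and -0.016). The mean difference over members stayed between -0.040 and -0.079 in the settings run. With 3 cultures per treatment, the simulation called 2% of antibody changes of 0.5 on the log2 scale, so changes of that size were not detectable.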

Other observations

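Among the genes below the filter, XAF1, a pro-apoptotic interferon-stimulated gene, had antibody pair means of 4.79, 4.68 and 4.90 against 4.23, 4.40 and 4.25 in untreated pairs. The difference of 0.50 ± 0.12 (SE, n = 3 pair means per group) had an unadjusted p of 0.00337 and an adjusted p of 1.00 in the limma fit of all genes. IFI44 ran the other way, with 3.78, 3.52 and 3.73 against 3.86, 4.00 and 4.13 (-0.32 ± 0.13; unadjusted p = 0.0432, adjusted p = 1.00). Both levels are dim in all 12 arrays, and both genes were singled out after their values were seen.

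Further genes of the pathway with an unadjusted p under 0.05 between fractions were mostly lower in SP cells, and none passed with limma. GBP3, a guanylate-binding protein, differed by -0.42 ± 0.10 (SE, n = 6 pairs; adjusted p = 0.0661). IFITM2 and IFITM3, which block virus entry from endosomes, differed by -0.31 ± 0.085 and -0.29 ± 0.084 (adjusted p = 0.0981 and 0.115), and their transcripts are similar enough that probe sets may bind more than 1 of them. TRIM25, a ubiquitin ligase that acts on the RNA sensor RIG-I, differed by -0.28 ± 0.080 (adjusted p = 0.113), and the kinase TYK2 by -0.19 ± 0.054 (adjusted p = 0.108). TBK1, the kinase that activates IRF3, and HLA-DPA1, an MHC class II chain, had estimates above 0, 0.14 ± 0.060 and 0.19 ± 0.067 (adjusted p = 0.279 and 0.187). A second, dimmer probe set of GBP1 was lower in SP in all 6 pairs, with a mean difference of -0.41 ± 0.16 (SD, n = 6 pairs), and one of GBP2 likewise, with -0.24 ± 0.17. These values were picked from the tables after the fact and were not adjusted for that choice.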
